A study of Rattus norvegicus with 9 samples.

Results

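The RNA levels of 10 genes of Bmp signalling were followed in rat pXEN cells. They were the ligand gene Bmp4, the receptor gene Bmpr1a and the signal transducers Smad1 and Smad5. The others were the inhibitors Smad6, Smad7 and Bambi and the target genes Id1, Id2 and Id3. Proteins and the activity of the pathway were not measured. The genes were taken by symbol, and all 10 were found among the 17315 genes of each count table. pXEN cells are a stem cell model of the primitive endoderm, the early embryonic layer that gives rise to the visceral and parietal endoderm of the yolk sac. RNA was sequenced from a WKY rat line, RX1, in 9 libraries, 3 for each of 3 culture media. In the medium T the cells grew on fibronectin (100 ng/ml) in DMEM/MCDB with LA-BSA, ITS, ascorbic acid, 2% fetal bovine serum and 0.5 µM of the glucocorticoid dexamethasone. The medium LPE had neither serum nor dexamethasone, and the cells grew on collagen I (10 µg/ml) in DMEM/F12 with Neurobasal and the N2 and B27 supplements. Both T and LPE held Lif at 10 ng/ml. The medium CPE was built like LPE, with 1 µM Chir99021, an inhibitor of the kinase Gsk3 that activates Wnt signalling, and no Lif. Pdgf and Egf (10 ng/ml each) and β-mercaptoethanol were present in all 3 media, and no medium is described as holding an added Bmp protein or Bmp inhibitor. LPE and CPE thus differ by Lif and Chir99021, whereas T differs from each of them in serum, dexamethasone, basal medium, supplements and coating together. T and CPE differ in Lif and Chir99021 as well. Within a comparison these differences cannot be told apart. All cells came from RX1, and separate cultures are not described for libraries of the same medium, so the tests measure the spread between libraries, which may be technical.

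Bmp ligands are secreted dimers that bring type I receptors such as Bmpr1a together with a type II receptor, and the type I receptor then phosphorylates Smad1 and Smad5, which enter the nucleus with Smad4. Their direct targets include the Id genes, whose products hold back basic helix-loop-helix transcription factors, and the feedback inhibitors Smad6, Smad7 and Bambi. In the mouse embryo Bmp signalling is used in the yolk sac endoderm, where it takes part in forming the visceral endoderm.

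The 5 members whose levels differed by medium were Id1, Id3, Id2, Bmp4 and Bambi. Whether the windows around their annotated start sites hold the promoters used in these cells was not tested. The sequences of these windows are shown for comparison. Each runs from 250 bases before to 50 bases after the start and was taken from RefSeq on build GRCr8, which is not the build rn6 used for the counts. The Id1 window lies at chr3:161671314-161671613 (plus strand), the Id3 window at chr5:153656041-153656340 (plus strand) and the Id2 window at chr6:47470946-47471245 (minus strand). The Bmp4 window lies at chr15:22101884-22102183 (minus strand) and the Bambi window at chr17:58820954-58821253 (minus strand). Capitals mark the GC-rich Smad motifs GGCGCC and GGAGCC (read as GGCTCC on the other strand) and the TATA box TATAAA, wherever these letters occur on either strand.
Id1: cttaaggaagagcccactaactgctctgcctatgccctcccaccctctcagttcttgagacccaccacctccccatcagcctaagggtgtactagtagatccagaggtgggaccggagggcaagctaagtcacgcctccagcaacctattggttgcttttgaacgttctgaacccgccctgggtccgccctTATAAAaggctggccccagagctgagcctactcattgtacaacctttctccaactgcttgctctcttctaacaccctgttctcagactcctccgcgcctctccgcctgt
Id3: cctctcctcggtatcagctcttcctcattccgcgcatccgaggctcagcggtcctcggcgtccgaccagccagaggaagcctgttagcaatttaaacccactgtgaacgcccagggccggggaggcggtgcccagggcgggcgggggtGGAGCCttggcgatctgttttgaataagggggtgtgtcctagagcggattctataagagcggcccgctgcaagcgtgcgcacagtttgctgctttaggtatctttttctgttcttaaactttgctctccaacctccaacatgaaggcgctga
Id2: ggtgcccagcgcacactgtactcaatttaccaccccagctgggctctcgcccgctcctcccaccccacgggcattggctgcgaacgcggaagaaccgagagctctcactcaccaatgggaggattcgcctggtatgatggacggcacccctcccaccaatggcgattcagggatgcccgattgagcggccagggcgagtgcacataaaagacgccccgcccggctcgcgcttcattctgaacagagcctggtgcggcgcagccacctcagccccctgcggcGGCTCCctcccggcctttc
Bmp4: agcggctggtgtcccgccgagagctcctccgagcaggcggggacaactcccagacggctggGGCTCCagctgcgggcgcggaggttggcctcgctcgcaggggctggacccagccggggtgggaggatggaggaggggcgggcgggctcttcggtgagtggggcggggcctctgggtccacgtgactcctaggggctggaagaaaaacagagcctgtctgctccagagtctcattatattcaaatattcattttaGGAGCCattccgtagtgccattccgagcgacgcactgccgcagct
Bambi: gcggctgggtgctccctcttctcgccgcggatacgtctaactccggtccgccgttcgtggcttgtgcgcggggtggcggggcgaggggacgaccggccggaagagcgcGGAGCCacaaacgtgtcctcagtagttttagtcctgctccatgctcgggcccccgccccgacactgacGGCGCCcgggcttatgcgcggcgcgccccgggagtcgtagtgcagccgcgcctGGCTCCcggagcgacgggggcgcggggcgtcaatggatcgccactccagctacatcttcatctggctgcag

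GGAGCC was present in the Id3, Id2, Bmp4 and Bambi windows and absent from that of Id1, and it occurs in 27.9% of the 33469 promoter windows of the same length. The window of Smad5, a member not called in any comparison, also held it, at -113. Bambi alone among these 5 also held GGCGCC, at position -74 from the start, a motif found in 3688 of all windows, and Smad7 held it at -96 and -36. Id1 alone among the 5 held TATAAA, at -59, against 14.2% of all windows, and Bmpr1a, not called either, held it at -233. The Smad-binding palindrome GTCTAGAC (0.197% of windows) and the Stat core TTCNNNGAA (8.87%) were found in none of the 9 member windows. The Tcf/Lef core CTTTGA (16.1%) was found in those of Bmpr1a and Smad5 only. Their windows had 30.0% and 42.7% GC, against a median of 51.7% over all windows. These matches describe letters in a short window and say nothing of binding. Smad6 had no entry among the sequences used.

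Reads assigned to genes numbered 1698764 to 2161228 for T, 3119049 to 3233526 for LPE and 3127352 to 4418465 for CPE. Genes with at least 1 read numbered 10143 to 10621 for T, 8607 to 9314 for LPE and 9162 to 9878 for CPE. More genes were thus detected in T than in LPE or CPE, from fewer reads. Within a medium, the deepest library detected the most genes in T (10621) and CPE (9878) but the fewest in LPE (8607). The cause of the difference between media was not tested. Levels are given as CPM, counts per 1e+06 gene reads, and 1 read was worth 0.227 to 0.578 CPM. All 10 of the extraembryonic endoderm markers Gata4, Gata6, Sox17, Sox7, Pdgfra, Foxa2, Dab2, Sparc, Lama1 and Col4a1 were detected in every library. Their summed level was 11391 to 12508 CPM for T, 25108 to 28577 for LPE and 14391 to 16597 for CPE. This sum was mostly Lama1, Col4a1 and Sparc, and the markers went both ways: in LPE against T 5 were called higher and Pdgfra lower, and in CPE against T 5 were called higher and Sox17, Pdgfra and Dab2 lower. Of 5 fibroblast markers, Col1a2, Dcn and Lum were at 0 in all 9 libraries, and the sum of the 5 was 1.39 to 31.2 CPM in T and 0 in LPE and CPE. Of 5 endothelial and blood markers Ptprc was at 0 throughout, Kdr had a read in 1 T library, and the rest were Tek, Pecam1 and Cdh5. Their sum was 150.3 to 154 CPM in T and 149 to 208 in LPE, but 56.2 to 77.5 in CPE. The pluripotency genes Nanog and Sox2 were at 0 in every library, and with Esrrb their sum was at most 6.75 CPM, in a CPE library. Elf5 and Tfap2c, used as trophoblast markers, summed to 0.928 to 2.72 CPM for T, 0 to 3.10 for LPE and 6.43 to 12.01 for CPE. In these bulk libraries fewer cells of a type and less RNA per cell cannot be told apart. All levels below are CPM of a gene across libraries, not divided by gene length, so they are not set against each other between genes.

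**Figure D1:**
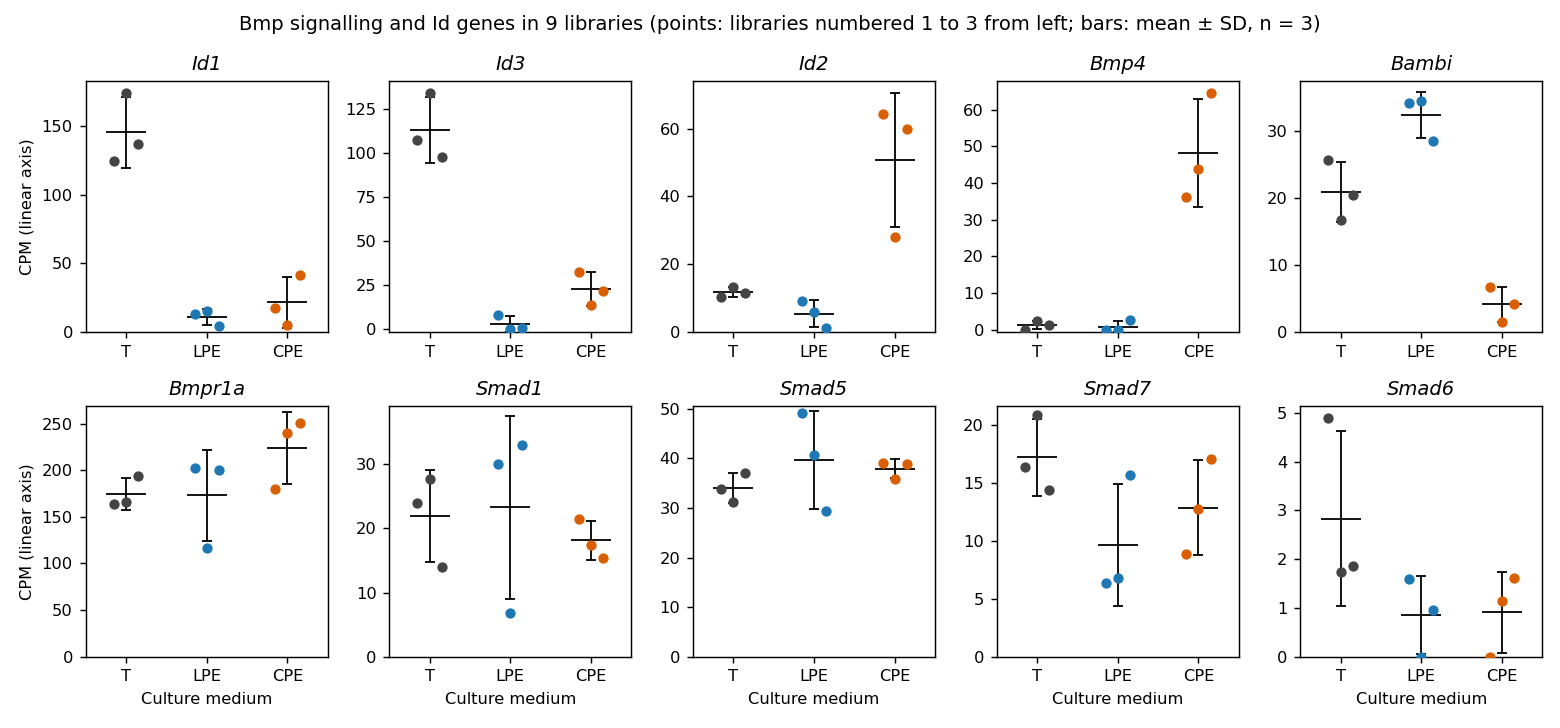
Level of each member in CPM (linear axis) in the 9 libraries, by culture medium; points are libraries and black marks are the mean and SD of 3. Id1 and Id3 are high in T, Id2 and Bmp4 are high in CPE, Bambi is low in CPE, and the media overlap in every comparison for Bmpr1a, Smad1, Smad5 and Smad7.

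Bmp4 encodes a ligand of the pathway that patterns the early embryo. It was close to 0 in T, with 0.00 CPM in replicate 1, 2.31 in replicate 2 and 1.39 in replicate 3, and in LPE, with 0.00, 0.00 and 2.56 CPM. In CPE it reached 36.2, 43.97 and 64.6 CPM. All CPE libraries thus lay well above all others, while T and LPE, with 7 and 8 reads in all, overlapped and allow no fold between them. Against T the fitted log2 fold change was 5.25 (SE 0.93, adjusted p = 0.00045 by edgeR's quasi-likelihood test over 9130 genes), or 38.0-fold higher in CPE. With a library left out it ran from 4.69, without T replicate 1, to 5.95, without T replicate 2. Against LPE it was 5.76 (SE 0.92, edgeR adjusted p = 0.00042), or 54.3-fold. This log2 value was 5.19 without LPE replicate 2 but 10.1 without LPE replicate 3, which held all of the LPE reads. The size of both folds therefore rests on few reads in the low group.

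The receptor gene Bmpr1a stood at 164, 166 and 194 CPM in T, at 202, 116 and 201 CPM in LPE and at 180.1, 240.05 and 251 CPM in CPE. The 3 media overlapped and no comparison was called. The log2 fold change was -0.015 for LPE against T (95% interval -0.44 to 0.41), 0.36 for CPE against T (-0.062 to 0.78) and 0.37 for CPE against LPE (-0.042 to 0.79), so changes of the size seen for Bmp4 lie outside these intervals while small ones do not.

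Smad1 and Smad5, which carry the signal from the type I receptors to the nucleus, showed no called change either. Smad1 had 23.97, 27.7 and 13.9 CPM in T, 30.0, 6.83 and 32.96 CPM in LPE and 21.5, 17.5 and 15.4 CPM in CPE. Its LPE libraries spread more than the distance between media, and its 95% interval for LPE against T ran from -0.99 to 1.17 on the log2 scale. Smad5 was the steadier of the pair, with 33.8, 31.2 and 37.1 CPM for T, 49.2, 40.7 and 29.4 for LPE and 39.1, 35.8 and 38.9 for CPE. Its log2 fold changes were 0.22 (95% interval -0.37 to 0.82) for LPE against T, 0.15 (-0.44 to 0.75) for CPE against T and -0.067 (-0.65 to 0.51) for CPE against LPE.

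Bambi encodes a receptor-like protein without a kinase domain that blocks signalling at the membrane and is itself induced by Bmp and by Wnt signalling. It had 25.6, 16.8 and 20.4 CPM in T, 34.1, 34.4 and 28.5 CPM in LPE and 6.77, 1.59 and 4.18 CPM in CPE. The CPE libraries were all below those of both other media, and the LPE libraries were all above those of T. CPE was 5.04-fold lower than T (log2 -2.33, SE 0.50, edgeR adjusted p = 0.0022) and 7.79-fold lower than LPE (log2 -2.96, SE 0.50, edgeR adjusted p = 0.00072). LPE against T was not called, with a log2 fold change of 0.63 (95% interval -0.35 to 1.61).

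Smad7, which competes with Smad1 and Smad5 at the receptor and marks it for degradation, had 16.3, 20.8 and 14.4 CPM for T, 6.38, 6.83 and 15.7 for LPE and 8.83, 12.7 and 17.04 for CPE. LPE replicate 3 lay among the T libraries, and no comparison was called, with log2 fold changes of -0.83 (95% interval -2.01 to 0.34) for LPE against T, -0.42 (-1.58 to 0.74) for CPE against T and 0.41 (-0.75 to 1.57) for CPE against LPE. Smad6, the inhibitor that acts chiefly on the Bmp branch, was at the limit of detection, with 9, 3 and 4 reads in T, 5, 0 and 3 in LPE and 0, 5 and 5 in CPE. It did not pass the filter on low counts, and a fit without that filter gave adjusted p of 0.55, 0.57 and 1 by edgeR for the 3 comparisons, so a change of Smad6 was not detectable at this depth.

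Id1 was high in T, at 125, 174 and 137 CPM. It stood at 13.1, 15.2 and 4.80 CPM in LPE and at 17.7, 5.44 and 41.8 CPM in CPE. T was thus above both serum-free media in every library, and LPE and CPE overlapped. Relative to T it fell by 3.71 on the log2 scale in LPE (SE 0.54, edgeR adjusted p = 0.00011) and by 2.77 in CPE (SE 0.51, edgeR adjusted p = 0.00067). The log2 change in CPE was -3.68 without CPE replicate 3 and -2.29 without CPE replicate 2. CPE against LPE was not called (log2 0.94, 95% interval -0.20 to 2.08, edgeR adjusted p = 0.26), and rested on single CPE libraries, at 1.42 (adjusted p = 0.044) without CPE replicate 2, the lowest, and 0.0344 (adjusted p = 0.98) without CPE replicate 3, the highest.

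Id3 followed Id1 in T, with 107, 134 and 97.9 CPM, but separated the serum-free media. It had 7.98, 0.00 and 0.64 CPM in LPE, from 25, 0 and 2 reads, and 32.7, 13.6 and 21.5 CPM in CPE. The 3 media did not overlap, in the order T, CPE, LPE. Its log2 fold change in LPE against T was -5.29 (SE 0.70, edgeR adjusted p = 4e-05), with -8.29 without LPE replicate 1 and -4.69 without LPE replicate 2. It fell by 2.33 in CPE against T (SE 0.57, edgeR adjusted p = 0.005), a call that DESeq2 did not make (log2 -2.31, adjusted p = 0.12). CPE was 7.77-fold higher than LPE (log2 2.96, SE 0.69, edgeR adjusted p = 0.0067), with log2 values of 5.98 without LPE replicate 1 and 2.37 without LPE replicate 2. This last call also depended on the test: the adjusted p was 0.057 with DESeq2, 0.091 in edgeR with the 6 libraries of LPE and CPE alone and 0.087 with limma voom weighted per medium.

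Id2 was highest in CPE, unlike Id1 and Id3. It had 10.3, 13.3 and 11.6 CPM in T, 9.26, 5.90 and 1.28 CPM in LPE and 64.4, 28.1 and 59.8 CPM in CPE. Each CPE library lay above all T and LPE libraries, and each LPE library lay below all T libraries. Id2 was 4.31-fold higher in CPE than in T (log2 2.11, SE 0.52, edgeR adjusted p = 0.0058) and 9.19-fold higher than in LPE (log2 3.20, SE 0.55, edgeR adjusted p = 0.00073). The latter was 3.80 on the log2 scale without LPE replicate 1 and 2.74 without LPE replicate 3. LPE against T did not pass the test (log2 -1.09, 95% interval -2.27 to 0.081, edgeR adjusted p = 0.16). LPE replicate 3 was the lowest of its medium for both Id1 and Id2, and CPE replicate 2 was the lowest of its medium for Id1, Id2 and Id3.

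The fibroblast markers were found in T only, where Id1 and Id3 were high. They summed to 14.2, 31.2 and 1.39 CPM in T replicates 1, 2 and 3, beside Id1 at 125, 174 and 137 CPM and Id3 at 107, 134 and 97.9 CPM. Replicate 2 was the highest for the sum, for Id1 and for Id3. Replicate 3, with the lowest sum, lay between the others for Id1 and was the lowest for Id3. Elf5, on the trophoblast list, was higher in CPE, where Id2 and Bmp4 were, at 9.17 ± 3.15 CPM against 0.529 ± 0.0585 for T (SD, n = 3, edgeR adjusted p = 0.027) and 0 counts in LPE. It passed the filter on low counts through CPE alone. Tfap2c, the only other gene of the trophoblast list with counts, had 8, 10 and 2 reads in T, LPE and CPE and was too low to test. The endothelial genes did not share a pattern against T. Tek was called lower in CPE than in T (log2 -1.32, edgeR adjusted p = 0.00029), whereas Pecam1 and Cdh5 were called higher in LPE than in T (2.05-fold and 5.27-fold, edgeR adjusted p = 0.021 and 0.0049). All 3 were called lower in CPE than in LPE. The part of these cell types in the results was not tested.

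**Figure D2:**
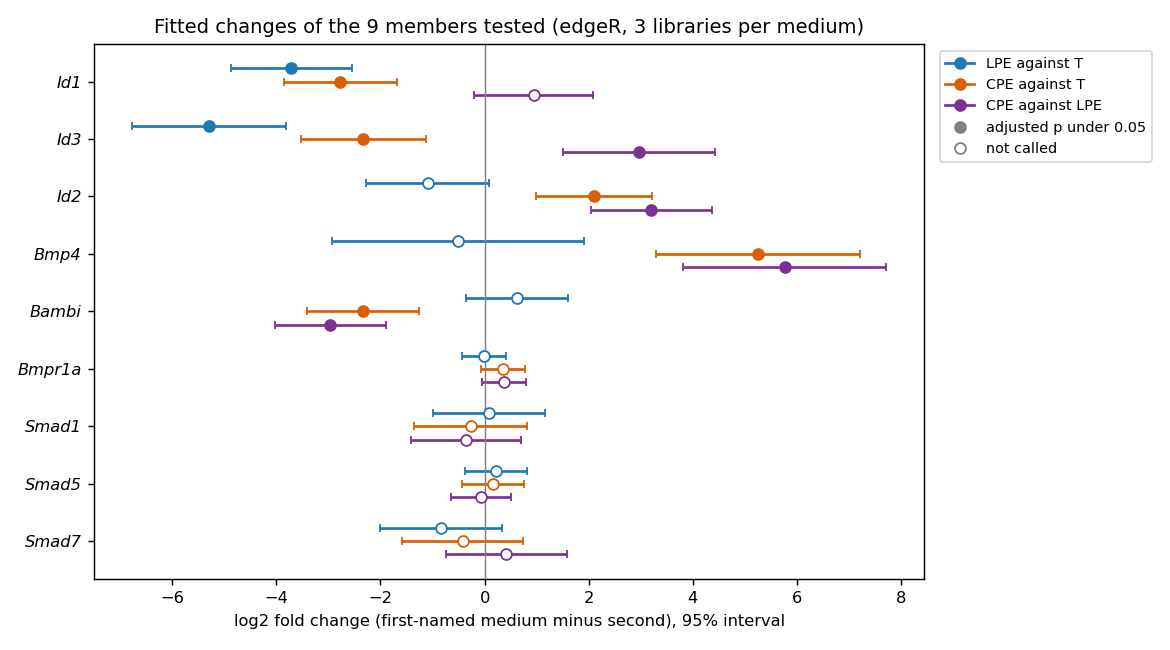
Fitted log2 fold changes of the 9 members tested (horizontal axis, 95% intervals as bars) for LPE against T, CPE against T and CPE against LPE; filled points have an edgeR adjusted p under 0.05. Id1 and Id3 lie left of 0 against T in both serum-free media, Bmp4 and Id2 lie right of 0 and Bambi left of 0 in both comparisons with CPE, and all intervals of Bmpr1a, Smad1, Smad5 and Smad7 cross 0.

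Counted over the members, 2 of the 9 tested (22.2%) were called in LPE against T, both lower. Of all 9130 genes 29.7% were called there, 15% higher and 14.7% lower, so the members' share is near that of genes at large. The libraries of both media did not overlap for 4 members, against 47.3% of all genes. In CPE against T 5 of 9 were called, with Id2 and Bmp4 higher and Id1, Id3 and Bambi lower. The background was 32.1%, with 16.8% higher and 15.3% lower, and the 5 members whose libraries did not overlap compare with 54.3% of all genes. In CPE against LPE 4 of 9 were called, with Id2, Id3 and Bmp4 higher and Bambi lower, against 17.8% of all genes, 9.56% higher and 8.23% lower. The libraries did not overlap for 4 members, against 31.3% of all genes. The genes called in CPE against LPE numbered 1624, but 1103 with the 6 libraries of LPE and CPE alone. They numbered 1118 with limma voom weighted per medium and 1948 with DESeq2. The Id3 call was lost in each of these alternatives. These 9 are the members that passed the filter on low counts, Bmp4 passing it through CPE alone, and both comparisons with T share the same T libraries. The members were also chosen with earlier results of these data known, so their shares are descriptions and no test of enrichment. The median log2 fold change of the 9 was -0.51, -0.27 and 0.41 in this order of comparisons, beside -0.027, -0.014 and 0.0075 over all genes tested.

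The makeup of the Id reads differed between media too, with no overlap in the Id2 share. Summed over Id1, Id2 and Id3, the level was 242, 321 and 246 CPM for T, 30.3, 21.1 and 6.72 for LPE and 115, 47.1 and 123 for CPE. The 3 media did not overlap, T being highest and LPE lowest. Id2 made up 4.27%, 4.14% and 4.71% of those reads in T. Its share was 30.5%, 27.9% and 19.05% in LPE, and 56.2%, 59.6% and 48.6% in CPE. The 95% exact binomial interval was narrow in T (2.64% to 6.14% in replicate 2) and wide in LPE (5.45% to 41.9% in replicate 3, which had 21 Id reads), and these intervals cover counting error only. Id3 made up 39.7% to 44.3% of the Id reads in T, 0% to 26.3% in LPE and 17.5% to 28.8% in CPE, and the 0 of 68 reads in LPE replicate 2 has an exact upper bound of 5.28%. Id1 made up 51.5% to 55.6% in T, 43.2% to 72.1% in LPE and 11.5% to 33.9% in CPE. For the Id2 share an exact two-sided permutation test gave p = 0.1 in each of the 3 comparisons, which is the smallest that 3 against 3 libraries allow. By the same test p was 0.4 for the Id1 share in LPE against T and 0.2 for the Id3 share in CPE against LPE. In their other comparisons it was 0.1. The larger Id2 share in LPE than in T came with a lower mean Id2 level (5.48 against 11.7 CPM, not called). Reads were not divided by gene length, so shares are read between media and not between genes.

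**Figure D3:**
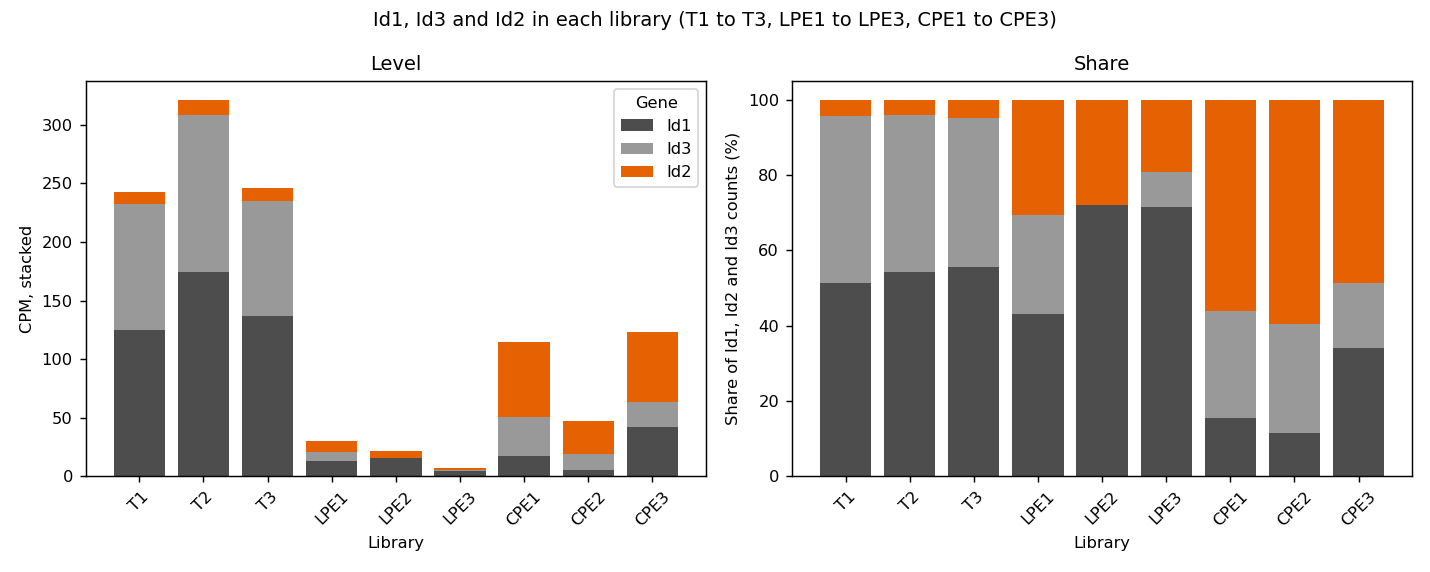
Stacked CPM of Id1, Id3 and Id2 (left) and their shares of the summed counts in percent (right) in each of the 9 libraries. The summed level is 242 to 321 CPM in T, and the Id2 share is 4.14% to 4.71% in T and 48.6% to 59.6% in CPE.

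The rest of the pathway was described with 68 further genes, of which 61 were listed in the tables, 39 had at least 1 count and 27 were tested. In LPE against T 9 were called higher and 2 lower (40.7%, against 29.7% of all genes), with a median log2 fold change of 0.58. The count of 11 fell to 7 without T replicate 2, when Smurf1, Tob1, Id4 and Tbx3 were no longer called. In CPE against T 8 were higher and 3 lower (40.7%, against 32.1%), with a median of 0.30. In CPE against LPE 2 were higher and 3 lower (18.5%, against 17.8%), with a median of -0.18. Gata2, counted as higher in both comparisons with CPE, passed the filter on low counts through CPE alone. The medians over all genes tested are given above. These lists too were chosen with earlier results of these data known, so their shares are descriptions only.

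Among the ligands, Bmp6, which in other tissues acts in iron balance and bone, rose in both serum-free media. It had 2.18, 2.89 and 4.18 CPM in T, 48.2, 67.96 and 77.8 CPM in LPE and 30.0, 17.9 and 16.4 CPM in CPE, so that the 3 media did not overlap. The log2 fold change was 4.35 in LPE (SE 0.43, edgeR adjusted p = 2.4e-06) and 2.76 in CPE against T (SE 0.43, edgeR adjusted p = 0.00015), and its CPE level was below that of LPE by 3.01-fold (edgeR adjusted p = 0.0041). Bmp4 and Bmp6 thus had their highest levels in different media, CPE and LPE. Bmp2 did not pass the test in any comparison, with means of 3.30 ± 1.92 CPM for T, 4.04 ± 4.96 for LPE and 2.48 ± 1.25 for CPE (SD, n = 3 here and below). Bmp8a, with 4.95 ± 1.85, 18.4 ± 7.93 and 2.93 ± 3.46 CPM, did not pass it either.

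Of the 6 receptor and co-receptor genes tested, Bmpr1a included, only Bmpr2 was called, and it rose against T in both media. Bmpr2 encodes the type II receptor that activates Bmpr1a, and it went from 65.5 ± 2.10 CPM in T to 169 ± 31.6 in LPE and 150.2 ± 26.3 in CPE, a rise of 2.59-fold (edgeR adjusted p = 5e-05) and 2.29-fold (edgeR adjusted p = 0.00014). The second type I receptor gene Acvr1 was at 4.44 ± 1.17, 11.3 ± 6.72 and 6.75 ± 5.16 CPM and was not called. Smad4, the shared partner of Smad1 and Smad5, rose 1.897-fold in LPE (edgeR adjusted p = 0.00062) and 1.97-fold in CPE (edgeR adjusted p = 0.00033) from 95.6 ± 2.49 CPM in T. Smad9, the third Smad of the Bmp branch, had 0 counts in all 9 libraries.

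Among the intracellular inhibitors, Tob1 and Tob2, had their highest means in CPE. The Tob1 product binds Smad proteins and restrains Bmp responses in mouse bone cells. Tob1 had 19.6, 19.1 and 24.6 CPM in T and 92.99, 88.6 and 78.4 CPM in CPE, a rise of 4.09-fold (edgeR adjusted p = 0.0033). Its LPE libraries spread from 14.6 to 97.6 CPM and overlapped with T. The call of Tob1 in LPE against T (2.80-fold, edgeR adjusted p = 0.024) was lost when T replicate 1 or 2 or LPE replicate 1 or 3 was left out, with adjusted p of 0.08, 0.089, 0.062 and 0.16. It was also lost with the 6 libraries of LPE and T alone (adjusted p = 0.057) and on thinning all libraries to the lowest depth (adjusted p = 0.063). Tob2 rose 3.21-fold in CPE against T, to 68.7 ± 11.3 CPM (edgeR adjusted p = 0.00069). Its call against LPE (2.01-fold) was lost without LPE replicate 2 or CPE replicate 1 or 3, at edgeR adjusted p of 0.055, 0.066 and 0.097, and with the 6 libraries alone (0.06) or thinned libraries (0.18). Fkbp1a, which encodes the protein FKBP12 that keeps type I receptors inactive, fell 1.36-fold in LPE and 1.54-fold in CPE from 586 ± 16.6 CPM in T (edgeR adjusted p = 0.0027 and 0.00015). Smurf1, a ubiquitin ligase for Smad1 and Smad5, was called 1.499-fold higher in LPE than in T (edgeR adjusted p = 0.042), and leaving out T replicate 1, 2 or 3, LPE replicate 1 or 2 or CPE replicate 2 ended that call (adjusted p = 0.059 to 0.14).

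The secreted modulator Bmper had the largest change among genes of that role and moved in opposite directions. Bmper binds Bmp proteins outside the cell and can dampen or aid their signal, and it had 62.1, 54.3 and 75.2 CPM in T, 173, 188 and 196 CPM in LPE and 4.41, 6.12 and 1.61 CPM in CPE. The 3 media did not overlap. LPE was above T by 2.898-fold (edgeR adjusted p = 0.00025). CPE was below T by 15.1-fold (edgeR adjusted p = 2.5e-07) and below LPE by 43.7-fold (log2 -5.45, SE 0.31, edgeR adjusted p = 1.8e-08). Bmp1, a protease that frees Bmp ligands by cutting the antagonist chordin, rose 3.71-fold in LPE and 5.26-fold in CPE from 14.6 ± 1.09 CPM in T (edgeR adjusted p = 0.0003 and 3e-05). Crim1, a membrane protein that binds Bmp ligands, rose 3.49-fold and 2.64-fold from 27.9 ± 8.53 CPM (edgeR adjusted p = 0.0003 and 0.0019). Fst, which encodes the antagonist follistatin, had all CPE libraries above the rest, at 18.5 ± 6.04 CPM against 4.08 ± 1.69 in T and 3.15 ± 2.73 in LPE, but did not pass the test (edgeR adjusted p = 0.086 and 0.07).

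Among further target genes, the transcription factor gene Gata2 was, like Bmp4, high in CPE alone. It had 61.8, 44.2 and 130.5 CPM in CPE, while the T libraries held 6 reads in all and the LPE libraries 4. The fitted log2 fold change was 6.17 against T (95% interval 4.68 to 7.66, edgeR adjusted p = 7.8e-06) and 7.40 against LPE (95% interval 5.84 to 8.97, edgeR adjusted p = 5.1e-06). The latter was 10.8 without LPE replicate 1, which held all LPE reads, and 6.83 without CPE replicate 3. Like Bmp4, Gata2 passed the filter on low counts through CPE alone, and the size of both folds rests on few reads. Id4 and Tbx3 are given here outside the naming rule, to complete the targets called. Id4, the fourth Id gene, had 74.6, 69.9 and 91.9 CPM in T, 18.2, 53.1 and 32.96 CPM in LPE and 23.8, 13.1 and 32.1 CPM in CPE. It was lower in both serum-free media, by 2.27-fold (edgeR adjusted p = 0.026) and 3.44-fold (edgeR adjusted p = 0.0021). The call in LPE ended when T replicate 1, 2 or 3 or LPE replicate 1 or 3 was left out, at edgeR adjusted p of 0.06, 0.053, 0.1, 0.088 and 0.067. Tbx3, a T-box factor gene, was highest in LPE, at 68.1 ± 21.2 CPM, with 27.8 ± 8.43 in T. Its mean in CPE was 20.9 ± 8.94 CPM, which was below LPE by 3.23-fold (edgeR adjusted p = 0.0044). Its rise in LPE against T (2.44-fold, edgeR adjusted p = 0.015) did not pass the test with T replicate 2, T replicate 3 or LPE replicate 2 left out (adjusted p = 0.084, 0.055 and 0.056). Msx2 did not pass the test, at 18.2 ± 3.02 CPM for T, 13.9 ± 10.4 for LPE and 8.75 ± 7.98 for CPE. Cdx2, also on the target list, had 28, 0 and 70 reads in CPE and 0 in every T and LPE library, and it did not pass the filter on low counts. Dlx3, Dlx5, Gata3, Hey1 and Atoh8 were at 0 in every library.

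**Figure D4:**
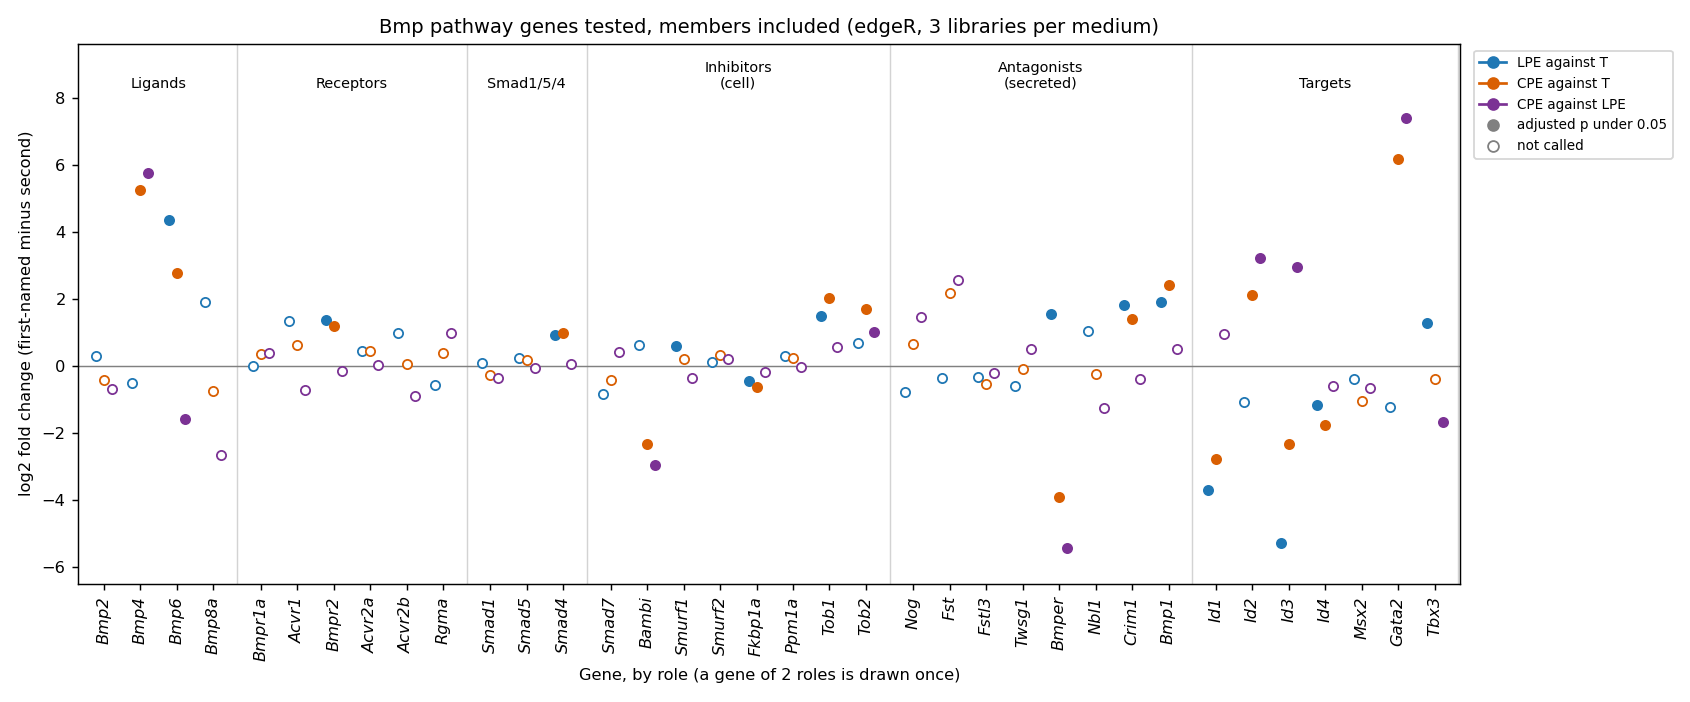
Fitted log2 fold changes (vertical axis) of all tested genes of the Bmp pathway lists, ordered by role, for the 3 comparisons; filled points have an edgeR adjusted p under 0.05. Among receptors and Smads only Bmpr2 and Smad4 have filled points, Bmp4, Bmp6, Bmper, Gata2 and Id3 reach farthest from 0, and the LPE against T points of Bmp4 and Gata2 rest on few reads.

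The E proteins, which Id proteins bind and keep off DNA, showed few calls. Tcf3 was not called, at 69.1 ± 10.3, 62.5 ± 9.17 and 82.5 ± 23.8 CPM in T, LPE and CPE. Tcf12 was called 1.58-fold higher in CPE than in T (edgeR adjusted p = 0.04), but the call was lost without any single T or CPE library (adjusted p = 0.062 to 0.16) and on thinning (0.053). Tcf4 was 6.16-fold higher in CPE than in LPE (edgeR adjusted p = 0.038), at 27.7 ± 1.16 against 4.47 ± 4.82 CPM, and the call ended when T replicate 1, 2 or 3, LPE replicate 3 or CPE replicate 1, 2 or 3 was left out (adjusted p = 0.051 to 0.1), with the 6 libraries alone (0.071) or on thinning (0.05). Its log2 fold change of 2.62 was 3.83 without LPE replicate 1 and 2.04 without LPE replicate 2.

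In the Tgf-beta and Nodal branch, whose receptors act through Smad2 and Smad3, 8 genes were tested. In CPE against T, Tgfbr1 fell 1.65-fold from 156 ± 4.81 CPM (edgeR adjusted p = 0.0043) and Tgfbr3 was 1.94-fold higher (edgeR adjusted p = 0.035). The Tgfbr3 call ended when T replicate 1, 2 or 3 or CPE replicate 1 was left out (adjusted p = 0.06, 0.15, 0.08 and 0.21) and on thinning (0.07). Smad2 had 138 ± 12.1, 122 ± 15.6 and 105 ± 13.5 CPM in T, LPE and CPE and was not called.

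The genes whose levels over the 9 libraries were most like those of a member were found among 8588 candidates, by the root mean square difference of log2(CPM + 1) after centring each gene. For Id1 they were the microRNA gene Mir291b (0.631), to which reads of long RNA cannot be assigned with certainty,, Kif5c (0.732), Tm7sf3 (0.816), Slc38a4 (0.817) and Cdkn1c (0.827), while Id3 itself was at 1.44 and Id2 at 2.10 from Id1. Cdkn1c, an imprinted inhibitor of the cell cycle, had 257 ± 29.2 CPM for T, 33.0 ± 12.7 for LPE and 33.8 ± 6.20 for CPE. For Id2 they were Eno3 (0.469), Krt18 (0.529), Ppp1r9a (0.540), Rab3d (0.618) and Nrk (0.619). Krt18, a keratin gene of simple epithelia, had 146 ± 30.5, 62.1 ± 11.6 and 556 ± 164 CPM in T, LPE and CPE. For Bmp4 they were Cpm, the carboxypeptidase M gene (0.553), Smpx (0.760), Car2 (0.797), Zfp703 (0.807) and Axin2 (0.819). Axin2, a feedback gene of Wnt signalling, had 0 counts in T and LPE and 20.4 ± 16.5 CPM in CPE. Smpx also had 0 CPM in T and LPE, and Car2 and Zfp703 had means of 0.646 and 0.567 CPM in T and 0 in LPE. Like Bmp4, these genes passed the filter on low counts through CPE alone, so their likeness rests largely on values near 0 elsewhere. These values describe likeness over 3 media and carry no test.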

How the data were processed

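RNA-seq libraries of 3 media (3 each) were used, grouped by their labels. The authors deposited raw counts of reads per gene on 3 strand settings. Per the submitters' processing notes CASAVA 1.8.2, Trimmomatic 0.33, STAR 2.5.1 and DESeq2 were used with build rn6, and no gene annotation is named there. A directional kit was used after removal of ribosomal RNA, per the labels' protocols, with 101 cycles, so the gene-strand column was taken. The other strand held at most 3 reads for any member. Reads mapping to several places (51.7% to 67.6%) enter no gene.

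The tests used edgeR 4.0.16 under R 4.3.3 (quasi-likelihood F test on counts, all 9 libraries, a mean per medium, TMM factors, filterByExpr with minimum count 10 and total 15), which kept 9130 genes and 9 of the 10 members. P-values were adjusted by Benjamini-Hochberg over the 9130 genes and called under 0.05. SE is the log2 fold change divided by the square root of F. CPM use TMM factors. The alternatives were DESeq2 1.42.0, limma 3.58.1 voom, RLE size factors, no filter, the 6 libraries compared, both strands, a replicate block, each library left out and, added after seeing the data, thinning to 1698764 reads. The members and lists were chosen with earlier results of these data known. In the other lists up to 4 called genes were named by size of change, if they reached 5 CPM in a medium. Smurf1, Id4, Tbx3, Cdx2 and the genes given as not called were added after their values were seen. The genes of likeness were the 5 nearest of each of Id1, Id2 and Bmp4, with the same minimum.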

Additional observations from a re-analysis of the deposited data

How the results depend on the processing

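No called member changed direction under any alternative tried, namely DESeq2, RLE factors, no filter, 6 libraries, both strands, voom, the replicate block, each library left out and thinning. Directions turned only where nothing was called. For LPE against T, Smad1 was at -0.12 with voom, -0.00452 with the block and -0.237 to 0.545 with a library left out, and Bmpr1a at 0.000398 with DESeq2, 0.00011 with RLE, 0.0184 with 6 libraries and -0.133 to 0.218 with a library left out. Thinning, chosen after seeing the data, gave 0.0893 for Smad1 and -0.0322 for Smad5 in CPE against T. With a library left out, Smad5 ran from -0.24 to 0.118 in CPE against LPE and Bmp4 from -4.87 (called, without LPE replicate 3) to 0.187 in LPE against T, from few reads. Id1 in CPE against LPE ran from 0.0344 to 1.42. The Id3 calls were lost with DESeq2 at -2.31 in CPE against T, and in CPE against LPE with DESeq2 (2.98), 6 libraries (2.96) and voom (4.37). All these are log2 fold changes, and the causes were not tested. The wider pathway count in LPE against T was 7 to 11 with a library left out. Replicate numbers were not taken as a pairing. Same-numbered libraries of different media deviated with r of -0.0283 to 0.00999, and differently numbered ones with r of -0.0425 to 0.0364. Whether libraries shared a batch was not tested. With the replicate block 2, 5 and 4 members and 11, 11 and 5 wider genes were called, and no member's call changed. Depth limits Smad6, with 34 reads in all, and Bmp4 in T and LPE, which was not tested for LPE against T with 6 libraries.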
